A study of Homo sapiens with 8 samples.

Results

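The data are the 3 arrays of the series, out of 8, that set L363 cells held with MLN120B for 12 h against L363 cells given the solvent DMSO. They were chosen by the time in the labels, and no measured value entered the choice. L363 is an established human cell line derived from a plasma cell malignancy, labelled multiple myeloma and bone marrow. MLN120B, a small molecule that inhibits the kinase IKKβ, was given at 12.5 µM and 37 °C. On each array cDNA from the treated cells carried Cy5 and cDNA from the DMSO cells carried Cy3, and no array had the dyes exchanged. The labels give the DMSO cells no incubation time of their own. The other groups used here have the same line, dose and solvent, with 8 h of MLN120B on 2 arrays and 24 h on 3. All results come from 1 cell line. The labels do not say whether the 3 samples are separate cultures. The p-values therefore measure sample-to-sample spread that may be technical.

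NF-κB is a family of dimeric transcription factors that rest in the cytoplasm, bound by inhibitors of the IκB family. IKKβ phosphorylates IκBα, which is then degraded, and the freed dimers of RELA and NFKB1 enter the nucleus. Several of the genes they switch on, such as those for IκBα and A20, encode brakes on the pathway, so their mRNA is commonly read as a gauge of its activity. Many myelomas carry mutations that keep the pathway on, and the series is titled as a study of NF-κB in that disease. The question of the comparison is which mRNAs differ after 12 h of IKKβ inhibition.

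Each value is a deposited log2 ratio of the 2 channels, centred on the median of its array, so that 0 is the middle of the array. The ratio is likely MLN120B over DMSO, but the direction is not stated in the sources used here. Base 2 is inferred from the size of the values and is an assumption for these 3 arrays. If the sign were turned, every direction below would turn with it. A ratio holds no level, so the presence of plasma cell markers in these cells could not be checked. Nor can a ratio tell a lower level in every cell from a loss in some of them. The gene of the inhibitor's own target, IKBKB, had no annotated feature.

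The 3 arrays differed widely in spread, and this touches every mean below. They held values for 8252, 13007 and 12310 of 15246 array features. Over the 5411 tested rows, which are genes or unnamed features with at least 2 values at each time, the SD was 1.12 on sample 1, 0.203 on sample 2 and 0.452 on sample 3. Sizes over 2 occurred in 244 rows on sample 1, in 1 row on sample 2 and in 9 rows on sample 3. Among themselves the 3 arrays correlated at -0.0857 to 0.0655 over tested rows (Pearson, 3 pairs). With the 24 h array of the same database run, a run being 1 of 3 sets of neighbouring experiment numbers in the labels, each correlated at 0.173 to 0.514 (3 pairs). With arrays of other runs at 8 h or 24 h they correlated at -0.21 to 0.0812 (10 pairs). These are correlations across genes, which are not independent replicates. Of 81 named genes, 52 had a 12 h mean that shrank by more than 1.5 times or changed sign without sample 1, against 1 without sample 2 and 6 without sample 3. For this reason each gene is also given its percentile among the tested rows of each array, which lets the 3 arrays count alike.

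No row passed the test at 12 h. With limma's moderated test and Benjamini-Hochberg adjustment, 0 of 5411 rows (0%) had an adjusted p under 0.05, and the smallest adjusted p was 0.929. Without adjustment, limma gave a p under 0.05 to 166 rows (3.07%), 98 of them (1.81%) with a mean below 0 and 68 (1.26%) with a mean above 0. The median SE of a 12 h mean was 0.278. What follows therefore describes measured values and does not name changed genes. Each SE comes from limma, which pools spread over all 8 arrays and takes it as equal on each. It is not the spread of the 3 values at 12 h, and n = 3 only counts those values. For WNT10A they had an SD of 0.68 beside an SE of 0.28, and for PLEK 4.85 beside 1.34. Such SEs are smaller than the 3 values alone would give, and the p-values rest on them. Of the 4349 rows with values on all 3 arrays, 413 (9.5%) lay below 0 on each and 610 (14%) above 0 on each. Of the 2807 named genes among them it was 286 (10.2%) and 382 (13.6%). As deposited, without centring, 810 (18.6%) lay below and 267 (6.14%) above, and the median of all tested means was -0.162 in place of -0.0035.

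**Figure D1:**
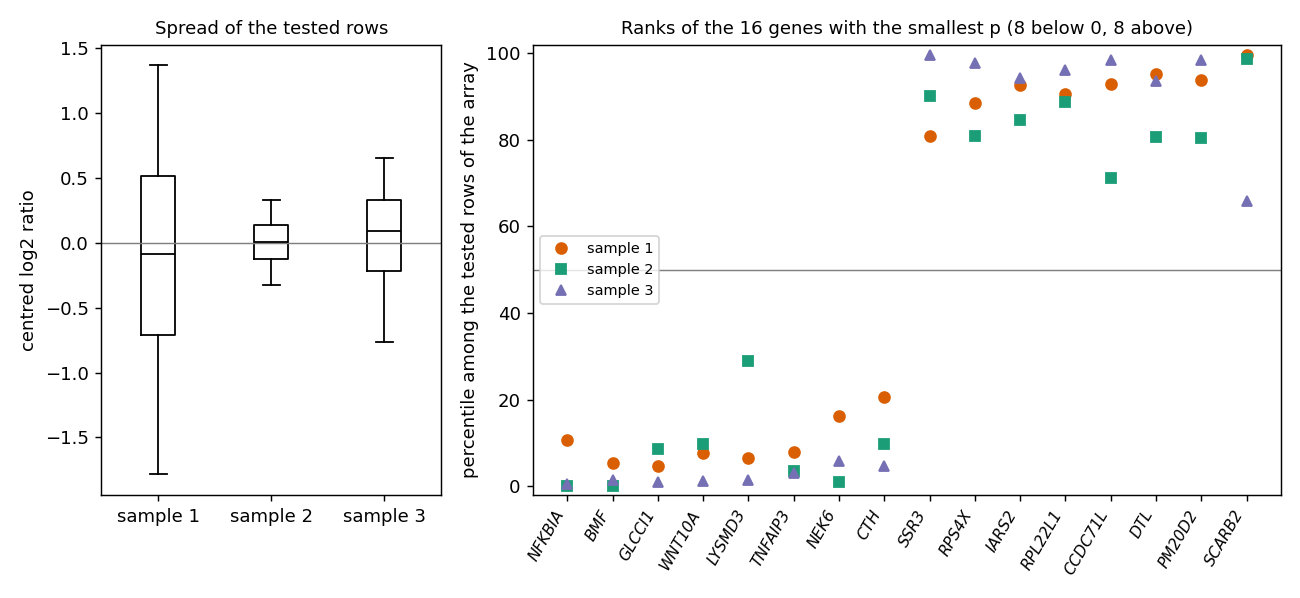
The left panel shows the centred log2 ratios of the tested rows on each 12 h array (box, quartiles; line, median; whiskers, 5th and 95th percentile). The right panel shows, for the 8 named genes below 0 and the 8 above 0 with the smallest unadjusted p, the percentile of each gene among the tested rows of each array. Sample 1 spreads several times as widely as sample 2, and NFKBIA lies at percentiles 10.6, 0.0374 and 0.506 on samples 1, 2 and 3.

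Genes of the study's NF-κB signature, several of them feedback inhibitors of the pathway, lay low on the arrays. One list, called the NF-κB study list here, holds 11 genes of a signature recalled from the paper on these data. That signature was picked in part on these samples, so its direction is not independent evidence. Of its 10 tested members all had a 12 h mean below 0, where 50.5% of all tested rows did, and 8 of 10 lay below 0 on all 3 arrays, where 9.5% of rows did. None passed the adjusted test, and 5 had an unadjusted limma p under 0.05. The median of the members was -0.795. The array medians were -1.43, -0.349 and -0.673 on samples 1, 2 and 3, a mean of -0.816 ± 0.553 (SD, n = 3). The eleventh gene, BIRC3, had no annotated feature. Among the members, 5, 8 and 8 of the 10 lay in the lowest 10% of samples 1, 2 and 3.

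NFKBIA encodes IκBα, the inhibitor that IKKβ marks for degradation, and is itself switched on by NF-κB. It stood at -1.33, -0.82 and -1.60 on samples 1, 2 and 3, a mean of -1.25 ± 0.22 (SE, n = 3). It was low on every array, and on samples 2 and 3 it lay below the first percentile. Its unadjusted limma p, 0.000305, was the smallest of any named gene below 0, and its adjusted p was 0.929. Of its 5 features, the 4 with values on all 3 arrays each lay below 0 on each array, with means from -1.51 to -0.82. The mean ran from -1.08 to -1.46 when any 1 sample was left out.

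TNFAIP3 encodes A20, an enzyme that edits ubiquitin chains and shuts the pathway down upstream of IKK. It stood at -1.52, -0.37 and -0.97, a mean of -0.95 ± 0.29 (SE, n = 3, limma unadjusted p = 0.0103). Its percentiles were 7.84, 3.44 and 3.05, so it was about equally low in rank on all 3 arrays despite the gap in size. All 6 of its features lay below 0 on all 3 arrays, with means from -1.34 to -0.63.

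WNT10A, a secreted Wnt ligand, stood at -1.53, -0.25 and -1.29, a mean of -1.02 ± 0.28 (SE, n = 3, limma unadjusted p = 0.00514). Both its features lay below 0 on all 3 arrays. IL2RG, the common gamma chain shared by several interleukin receptors, stood at -0.79, -0.24 and -0.57, a mean of -0.53 ± 0.21 (SE, n = 3, limma unadjusted p = 0.0293). All 5 of its features lay below 0 on each array. For WNT10A the lowest rank was on sample 3, at percentile 1.33, and for IL2RG too, at percentile 8.58.

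NFKB2 encodes p100, the precursor of the p52 subunit of the alternative pathway. It stood at -2.39, -0.38 and -0.70, a mean of -1.16 ± 0.53 (SE, n = 3), and without sample 1 the mean was -0.54. It was low in rank on each array, at percentiles 2.36, 3.11 and 5.77. Its features disagreed, since 2 of the 3 with values on all arrays lay below 0 throughout and the other read 0.46 on sample 3. RELB, the partner of p52, stood at 0.45, -0.75 and -1.09, a mean of -0.46 ± 0.30 (SE, n = 3). It was high on sample 1 and at percentiles 0.0935 and 2.23 on samples 2 and 3, and without sample 1 its mean was -0.92.

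PLEK, which encodes the cytoskeletal adaptor pleckstrin, stood at -8.93, -0.40 and -0.65. Its mean of -3.32 ± 1.34 (SE, n = 3) rested on a single feature on sample 1, and without that sample it was -0.52. MALT1, the paracaspase that carries antigen receptor signals to IKK, stood at -0.31, -0.26 and -0.55, a mean of -0.38 ± 0.27 (SE, n = 3). NFKBIE, which encodes IκBε, stood at -0.56, -0.33 and -0.44, a mean of -0.44 ± 0.52 (SE, n = 3). The SD of these 3 values was 0.11, and the larger SE takes in the other times, with -3.27 on sample 1 at 24 h. MALT1 and NFKBIE were below 0 on each array but less extreme in rank on sample 1, at percentiles 40.1 and 30.4. For MALT1 this held for the average of 2 features that disagreed, with means of -0.0002 and -0.75. The first of them read 0.55 on sample 1. CD74, the invariant chain of MHC class II, stood at -1.65, 0.15 and -0.41, so its values lay on both sides of 0, and its mean was -0.64 ± 0.38 (SE, n = 3). Without sample 1 the mean of CD74 was -0.13.

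**Figure D2:**
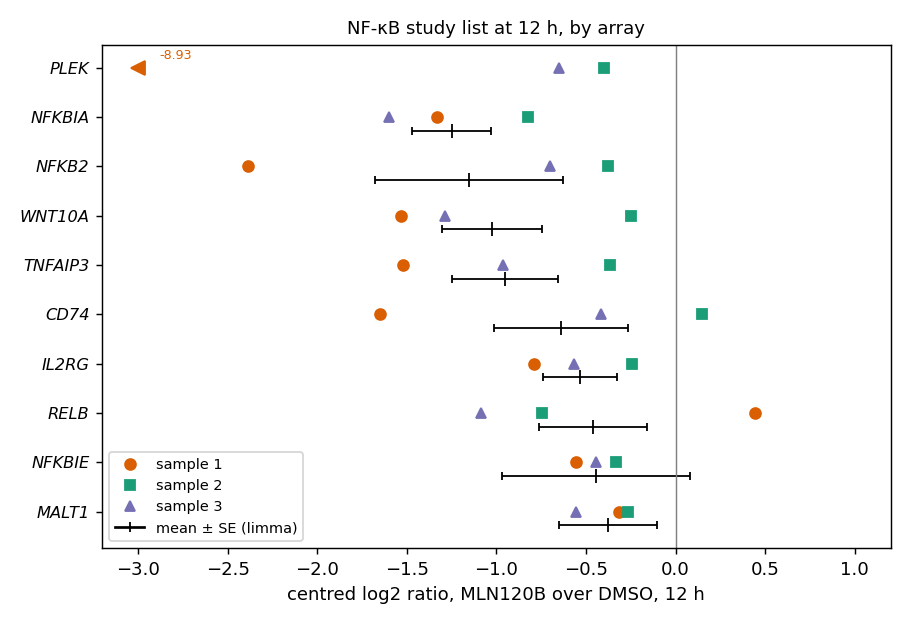
Each row is a tested gene of the NF-κB study list, and the points give its centred log2 ratio at 12 h on samples 1, 2 and 3; the black tick and bar below give the mean ± SE from limma (n = 3). The arrow marks PLEK on sample 1 at -8.93, off the scale, and its mean of -3.32 is not drawn. The points of 8 genes all lie left of 0, while RELB on sample 1 and CD74 on sample 2 lie right of it.

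The promoters of some of these genes hold the sequence that NF-κB dimers are known to bind, the κB decamer. Promoters were taken from RefSeq (GRCh38.p14) as 250 bases before to 50 after the gene's start, and 1562 of 27305 such windows (5.72%) held the decamer on either strand. Among the tested genes with a window it was 191 of 2730 (7.0%). In the study list 4 of the 8 genes with a window held it, NFKBIA, TNFAIP3, WNT10A and CD74, and the list was put together as NF-κB targets. Of the 8 named genes below 0 with the smallest p, 4 held it, namely the first 3 of those and BMF. GLCCI1, NEK6, LYSMD3 and CTH, also among the 8, held none in their windows. The windows of the 4 genes with a match are shown, with matches in capitals, 5′ to 3′ along the gene's strand. These 4 were picked for low values and for holding a match, and a link between match and ratio was not tested. In NFKBIA (chr14:35404700-35404999, minus strand) a match began 81 bases before the start. In TNFAIP3 (chr6:137867009-137867308, plus strand) matches began 67 and 55 bases before it. In WNT10A (chr2:218880602-218880901, plus strand) matches on opposite strands overlapped, beginning 117 and 116 bases before it. In BMF (chr15:40108830-40109129, minus strand) a match began 20 bases before it. A match describes letters and is not a measured binding site. The NFKB2 window held none in these 300 bases.
NFKBIA: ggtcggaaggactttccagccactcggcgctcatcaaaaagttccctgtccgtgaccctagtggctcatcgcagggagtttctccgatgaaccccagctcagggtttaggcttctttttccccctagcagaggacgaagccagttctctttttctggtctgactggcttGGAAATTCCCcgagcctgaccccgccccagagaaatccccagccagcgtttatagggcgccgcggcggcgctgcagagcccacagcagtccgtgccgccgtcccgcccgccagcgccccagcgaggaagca
TNFAIP3: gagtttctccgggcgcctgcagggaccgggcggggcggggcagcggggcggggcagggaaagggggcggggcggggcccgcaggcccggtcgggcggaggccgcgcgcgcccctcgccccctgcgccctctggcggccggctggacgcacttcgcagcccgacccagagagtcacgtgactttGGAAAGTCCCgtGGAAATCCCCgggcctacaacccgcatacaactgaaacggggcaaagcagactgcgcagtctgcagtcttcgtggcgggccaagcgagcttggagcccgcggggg
WNT10A: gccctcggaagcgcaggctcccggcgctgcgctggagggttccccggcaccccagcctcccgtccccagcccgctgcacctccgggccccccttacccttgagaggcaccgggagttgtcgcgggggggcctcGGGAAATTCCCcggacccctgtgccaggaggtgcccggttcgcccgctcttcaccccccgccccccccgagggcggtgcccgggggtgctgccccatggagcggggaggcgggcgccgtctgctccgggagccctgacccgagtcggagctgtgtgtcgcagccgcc
BMF: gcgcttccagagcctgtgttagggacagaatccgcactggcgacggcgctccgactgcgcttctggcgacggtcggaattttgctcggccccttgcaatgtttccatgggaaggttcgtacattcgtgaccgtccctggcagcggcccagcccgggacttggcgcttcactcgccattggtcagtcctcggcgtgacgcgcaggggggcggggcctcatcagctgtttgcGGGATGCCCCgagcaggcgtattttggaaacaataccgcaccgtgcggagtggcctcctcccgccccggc

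A wider set of NF-κB subunits and inhibitors, 10 of 14 tested, had a median 12 h mean of -0.453. In it 8 of 10 means lay below 0, beside 50.5% of all rows. Of the 9 genes with values on all 3 arrays, 4 (44.4%) lay below 0 on each, beside 9.5% of rows. These 4 were NFKBIA, TNFAIP3, NFKB2 and NFKBIE. They and RELB are also in the study list, so the set is not separate from it. Outside that list NFKB1, RELA and CYLD had means below 0, and REL and BCL3 had means above. None of these lay below 0 on every array. The classical subunits sat nearer the middle. NFKB1, which encodes p105 and p50, stood at -0.72, 0.01 and -0.16, a mean of -0.29 ± 0.32 (SE, n = 3). RELA, the main activating subunit, had values on samples 2 and 3 alone, -0.13 and 0.06. REL, the subunit prominent in lymphocytes, stood at 0.99, 0.06 and -0.75, and the sign of its mean, 0.10 ± 0.31 (SE, n = 3), turned under quantile, scale and no centring and without sample 1.

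Of the remaining inhibitors and cofactors, BCL3, a nuclear IκB protein, stood at 1.41, -0.45 and -0.52, high on sample 1 and low on the others. Its mean of 0.15 ± 0.37 (SE, n = 3) became -0.48 without sample 1. CYLD, a deubiquitinase that restrains the pathway, stood at -0.18, 0.24 and -1.46, a mean of -0.46 ± 0.31 (SE, n = 3), and without sample 3 its mean was 0.030.

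Kinases, adaptors and receptors upstream of NF-κB, 17 of 27 tested, had a median of -0.244, with 13 means below 0, beside 50.5% of all rows. On all 3 arrays 3 of 14 (21.4%) lay below 0 and 2 (14.3%) above, beside 9.5% and 14% of all rows. None had an unadjusted limma p under 0.05, beside 3.07% of all rows. TRAF1, an adaptor of TNF receptors that NF-κB induces, stood at -2.15, 0.03 and 0.16, so its mean of -0.66 ± 0.40 (SE, n = 3) rested on sample 1 and was 0.092 without it. TNFRSF17 encodes BCMA, the receptor for BAFF and APRIL on plasma cells, and was above 0 on each array at 0.59, 0.38 and 0.61. Its mean was 0.53 ± 0.26 (SE, n = 3), at percentiles 77.7, 97.0 and 93.4.

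A textbook list of NF-κB targets from many cell types lay near the middle of the arrays. Of 53 genes 41 were tested, with a median of -0.0512, 22 means below 0 and 19 above. Of 36 with values on all 3 arrays, 3 lay below 0 on each (8.33%, beside 9.5% of all rows) and 4 above (11.1%, beside 14%). The array medians were 0.316, -0.0835 and -0.092. CCL5, a chemokine, was among the 3 below, at -0.74, -0.16 and -0.60, but its 2 features with values on all 3 arrays averaged -1.0, -0.14 and 0.27. The largest means of the list rested on sample 1. CD69, an early activation antigen, stood at -4.21, 0.03 and -0.05, and 1 of its features read -8.12 there. IL15, a cytokine, stood at 3.35, -0.16 and -0.58, from a single feature on sample 1 that had no value on the other arrays.

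Genes of MHC class II antigen presentation, which display peptides to CD4 T cells and are typical of B cells rather than plasma cells, lay below the middle as well. Of 16 genes 9 were tested, and each of the 9 means lay below 0 (median -0.493), beside 50.5% of all rows. On all 3 arrays 7 of 9 (77.8%) lay below 0, beside 9.5% of all rows, and CD74 is shared with the study list. None passed the adjusted test, and 2 had an unadjusted limma p under 0.05. The array medians were -0.966, -0.171 and -0.343, and without sample 1 the median of the list was -0.221. The members have close relatives, and a feature of an HLA gene may read more than 1 of them, so they are not independent.

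HLA-DMB, a chaperone that helps load peptides, stood at -1.24, -0.23 and -0.34, a mean of -0.60 ± 0.25 (SE, n = 3, limma unadjusted p = 0.0417). HLA-DRA, the invariant partner of the DR chains, stood at -1.40, -0.10 and -0.34, a mean of -0.61 ± 0.31 (SE, n = 3). HLA-DPA1 stood at -0.66, -0.22 and -0.54, and HLA-DQA1 at -0.97, -0.17 and -0.34. All 4 were lowest in ratio on sample 1, and their averages over features stayed below 0 on each array. Besides CD74, the only member whose average did not was HLA-DQB1, at -0.35, -0.30 and 0.11. Single features disagreed in part. Of those with values on all 3 arrays, 2 of 3 for HLA-DMB and 2 of 4 for HLA-DRA lay below 0 on each. It was 2 of 3 for HLA-DPA1, 3 of 5 for HLA-DQA1 and 1 of 3 for HLA-DRB1. HLA-DOB, which did not meet the filter on values, read 1.15, 0.17 and -0.09.

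CIITA, the master activator of MHC class II genes, stood at -1.05, -0.35 and -0.92, a mean of -0.77 ± 0.25 (SE, n = 3, limma unadjusted p = 0.0123). These values average different features on each array and are uncertain. A feature seen on sample 3 alone read -4.97 there, and without it the gene stood at -0.25 on that array. The 2 features with values on all 3 arrays had means of -0.53 and 0.10, and together averaged -0.01, -0.47 and -0.15 on samples 1, 2 and 3.

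**Figure D3:**
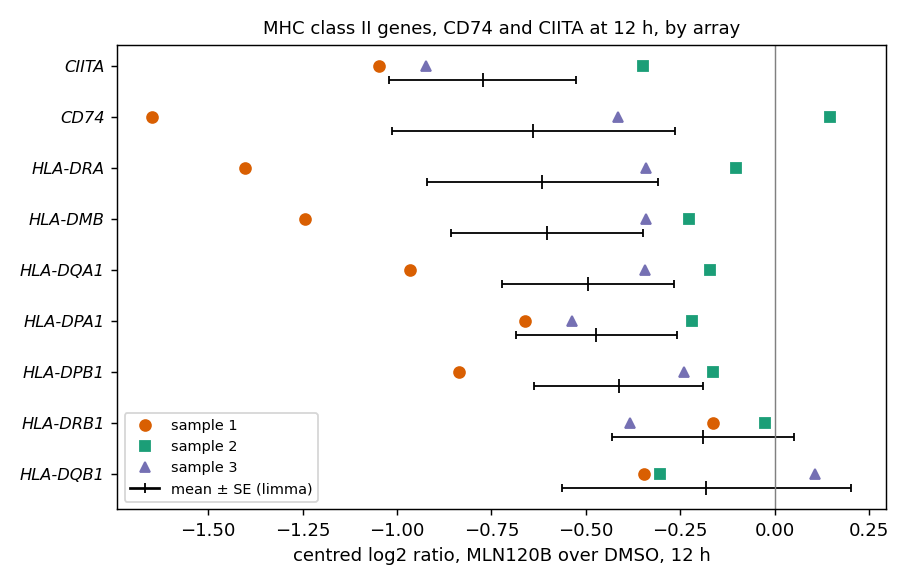
Each row is a tested gene of the MHC class II list, and the points give its centred log2 ratio at 12 h on samples 1, 2 and 3; the black tick and bar below give the mean ± SE from limma (n = 3). Most points lie left of 0, sample 1 is usually the lowest, and CD74 on sample 2 and HLA-DQB1 on sample 3 lie right of 0.

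Outside these lists the lowest named genes included BMF, a BH3-only protein that promotes apoptosis. BMF stood at -1.77, -0.71 and -1.27, a mean of -1.25 ± 0.30 (SE, n = 3, limma unadjusted p = 0.00345). It was low on every array, at percentiles 5.28, 0.131 and 1.41, from 1 feature. Of 26 tested regulators of apoptosis it alone had a p under 0.05, and their median was -0.0405. BCL2, the founding survival gene of that family, stood at -0.80, -0.08 and -0.33, a mean of -0.40 ± 0.24 (SE, n = 3).

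GLCCI1, a gene induced by glucocorticoids, stood at -1.82, -0.26 and -1.41, a mean of -1.16 ± 0.30 (SE, n = 3). NEK6, a mitotic kinase, stood at -1.03, -0.48 and -0.70, a mean of -0.74 ± 0.20 (SE, n = 3), and both its features lay below 0 on each array. These genes were low on all 3 arrays, NEK6 most clearly on sample 2 at percentile 0.917. LYSMD3 stood at -1.61, -0.10 and -1.25. CTH, an enzyme of cysteine synthesis, stood at -0.85, -0.25 and -0.80, but its 2 features had means of -1.20 and -0.07.

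When ranks were used, 14 rows (0.322% of 4349) lay in the lowest 10% of each of the 3 arrays, and 6 of them were named genes. These were BMF, NFKB2, PLEK, TNFAIP3, GLCCI1 and WNT10A, of which 4 belong to the study list. Only 1 row (0.023%), an unnamed feature, lay in the lowest 5% of each, at -2.21, -0.73 and -1.74, and it was below 0 on all 8 arrays of the series. In the highest 10% of each array there were 5 rows (0.115%), and the sole named one was FHIP2B, at 1.33, 0.33 and 0.64, a gene named here after its values were seen. No row (0%) lay in the highest 5% of each.

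Genes of the secretory apparatus tended to lie above the middle. Plasma cells rely on the endoplasmic reticulum to fold and export antibody, and of 35 genes of that organelle and the unfolded protein response 19 were tested. Of these 15 had a mean above 0, beside 49.5% of all rows, and 8 (42.1%) lay above 0 on all 3 arrays, beside 14%. None passed the adjusted test, and 2 had an unadjusted limma p under 0.05. The median was 0.20, with array medians of -0.0135, 0.11 and 0.476. It was 0.0203 without centring and 0.0431 without sample 3.

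SSR3, part of the TRAP complex at the translocon, stood at 0.69, 0.26 and 0.94, a mean of 0.63 ± 0.23 (SE, n = 3, limma unadjusted p = 0.0251). CRELD2, induced by endoplasmic reticulum stress, stood at 1.76, 0.02 and 0.72, a mean of 0.83 ± 0.36 (SE, n = 3). XBP1, the transcription factor of the plasma cell secretory programme, stood at 1.26, 0.07 and 0.48. Sample 3 or sample 1 was the highest for each. HSP90B1, the chaperone GRP94, went against the list at -0.72, 0.29 and -2.82, a mean of -1.08 ± 0.49 (SE, n = 3), which was -0.22 without sample 3.

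Ribosomal protein genes lay above the middle to a similar extent, with 24 of 76 tested and 22 means above 0, beside 49.5% of all rows. On all 3 arrays 9 of 22 (40.9%) lay above 0, beside 14% of all rows, and none passed the adjusted test. The median was 0.22, with array medians of 0.116, 0.0885 and 0.659, and it was 0.054 without centring, 0.0809 without sample 3 and 0.36 without sample 1. RPS4X stood at 0.96, 0.17 and 0.77, a mean of 0.63 ± 0.22 (SE, n = 3, limma unadjusted p = 0.0177), and was high on all 3 arrays. RPS6 stood at 1.64, -0.20 and 0.63, and RPL8 at -2.32, 0.01 and 0.36, so the largest members did not share a direction across arrays. Ribosomal genes have many near-identical pseudogene copies, which a feature could also read.

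Genes of plasma cell identity were split, with 7 of 14 means on either side of 0 and a median of 0.0951. PRDM1, which encodes Blimp-1, the regulator that drives plasma cell differentiation, stood at 0.31, 0.34 and 0.72, a mean of 0.46 ± 0.19 (SE, n = 3, limma unadjusted p = 0.0407). JCHAIN, the joining chain of secreted antibody, stood at 0.47, 0.20 and 0.55. MZB1, a chaperone of antibody assembly, lay on the other side at -1.07, -0.05 and -0.88, a mean of -0.67 ± 0.23 (SE, n = 3, limma unadjusted p = 0.0187). JCHAIN and PRDM1 were above 0 and MZB1 below 0 on each array, averaged over features. On sample 1 JCHAIN and PRDM1 lay at percentiles 73.5 and 67.5. MZB1 was near 0 on sample 2, at percentile 38.9, and its 2 features with values on all 3 arrays averaged -0.006 there.

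B cell genes, 24 of 26 tested, had a median of 0.0378, with 14 means above 0 and 10 below. The means ran from -0.773 to 0.643. On all 3 arrays 4 of 21 (19.0%) lay below 0 and none above, beside 9.5% and 14% of all rows. The 4 below 0 on each array were CIITA, BCL6, BLNK and ETS1, and the list as a whole did not lie low. BCL6, the repressor that opposes Blimp-1, stood at -1.22, -0.12 and -0.76, a mean of -0.70 ± 0.28 (SE, n = 3), from features no one of which had a value on all 3 arrays. ETS1, a transcription factor of lymphocytes, stood at -0.68, -0.40 and -0.57, a mean of -0.55 ± 0.20 (SE, n = 3). BLNK, an adaptor of the B cell receptor, stood at -0.87, -0.23 and -0.42.

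Among the genes above 0 with the smallest p were several of unrelated function. DTL, an adaptor of an E3 ubiquitin ligase active during DNA replication, stood at 1.42, 0.17 and 0.62, a mean of 0.73 ± 0.25 (SE, n = 3, limma unadjusted p = 0.0155). IARS2, the mitochondrial isoleucyl-tRNA synthetase, stood at 1.16, 0.20 and 0.64. PM20D2 stood at 1.25, 0.17 and 0.82, and CCDC71L at 1.18, 0.11 and 0.82. All 4 were highest on sample 1 and, in rank, above the 70th percentile on every array. RPL22L1, a paralogue of a ribosomal protein, stood at 1.06, 0.24 and 0.70. SCARB2, a membrane protein of lysosomes, stood at 2.98, 0.46 and 0.24, and its mean of 1.23 ± 0.46 (SE, n = 3) was 0.35 without sample 1.

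**Figure D4:**
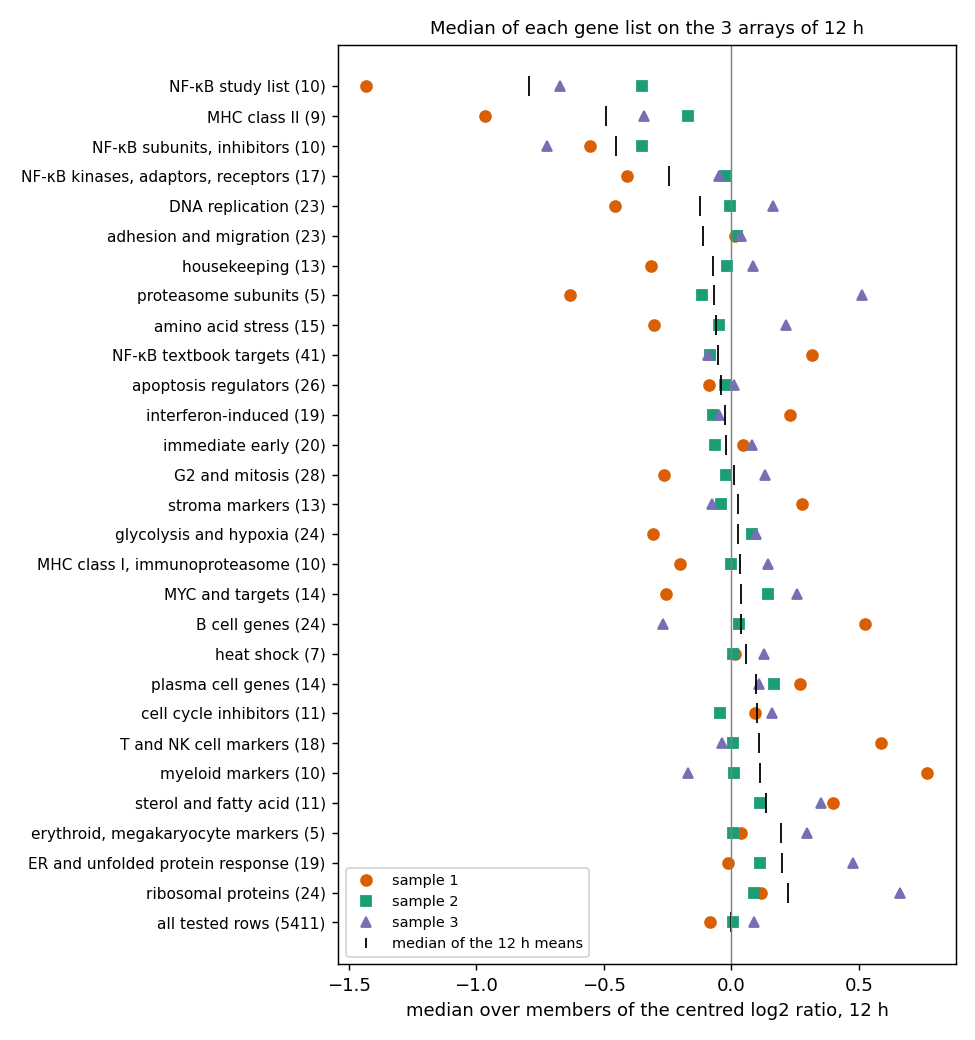
Each row is a gene list with its number of tested members, and the points give the median centred log2 ratio of the members on samples 1, 2 and 3 at 12 h; the black tick is the median of the members' 12 h means. MHC class II (-0.493) and the NF-κB study list (-0.795) lie left of 0 on all 3 arrays, and ribosomal proteins lie furthest right on sample 3, at 0.659.

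Housekeeping genes and markers of other cell types were measured in the same way. Housekeeping genes had a median of -0.0718 over 13 tested members, and ACTB, which encodes the actin of the cytoskeleton, read -1.30, 0.05 and -1.29. The medians of T and NK cell, myeloid, erythroid or megakaryocyte and stromal markers were 0.108, 0.113, 0.196 and 0.0245, over 18, 10, 5 and 13 members. On sample 1 the first 2 of these lists stood at 0.585 and 0.768, and on samples 2 and 3 their medians lay between -0.17 and 0.00982. GATA3, a T cell regulator, read -5.10, 0.15 and 0.23, so a value of that size on sample 1 was also seen in a marker of another cell type. No level can be read from a ratio, and whether other cells were present was not tested.

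Compared with 8 h, no row passed at 12 h. By limma 0 of 5411 rows (0%) had an adjusted p under 0.05, the smallest was 0.992, and 64 rows (1.18%) had an unadjusted p under 0.05. The median SE of the difference was 0.429. In the study list the difference of 12 h minus 8 h had a median of -0.516 and was below 0 in 8 of 10 genes, beside a median of -0.00417 and 50.3% below 0 over all rows. NFKBIA stood at -0.53 and -0.30 on samples 1 and 2 at 8 h, above all 3 values of 12 h, and differed by -0.83 ± 0.35 (SE, limma unadjusted p = 0.0404). TNFAIP3 stood at -0.10 and -0.65 at 8 h, so its values at 8 h and 12 h overlapped, and it differed by -0.58 ± 0.46 (SE). In the MHC class II list all 9 differences were below 0, beside the same 50.3% of rows, with a median of -0.531.

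Among named genes, the smallest p-values between 8 h and 12 h belonged to genes with no tie to these lists. GPBP1, a DNA-binding regulator, stood at -0.10 and 1.61 at 8 h and at -1.05, -0.32 and -1.61 at 12 h. No feature of GPBP1 had values on all 3 arrays of 12 h, so its values average different features and are uncertain. LYSMD3 differed by -1.42 ± 0.47 (SE, limma unadjusted p = 0.0144), from 0.21 and 0.66 at 8 h. SMC6, a subunit of a complex for DNA repair, differed by -1.45 ± 0.49 (SE, limma unadjusted p = 0.0154), from 0.07 and 1.00 at 8 h to -1.67, -0.17 and -0.91 at 12 h. For all 3 genes every 12 h value lay below both 8 h values, as it did in 370 of the 5411 rows (6.84%), and none passed the adjustment.

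Nor did any row pass between 12 h and 24 h. By limma 0 of 5411 rows (0%) had an adjusted p under 0.05, the smallest was 1.0, and 37 (0.684%) had an unadjusted p under 0.05. The study list had a median difference of -0.26, 24 h minus 12 h, and 7 of 10 genes below 0, beside 51.7% of all rows. NFKBIA stood at -0.99, -0.93 and -1.42 at 24 h, within the range of its 12 h values, and differed by 0.14 ± 0.31 (SE). TNFAIP3 stood at -1.64, -0.54 and -1.43, overlapping 12 h, and differed by -0.25 ± 0.42 (SE). MHC class II genes had a median difference of -0.0995.

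Among named genes, the smallest p-values between 12 h and 24 h belonged to MIR155HG, CSTF3 and PPP1R15B. MIR155HG, the host gene of the microRNA miR-155, stood at 0.19, -0.29 and -0.50 at 12 h and at -1.25, -0.76 and -1.27 at 24 h, a difference of -0.89 ± 0.31 (SE, limma unadjusted p = 0.0183). These values average different features on each array and are uncertain. The 2 of its 4 features with values on all 3 arrays of 12 h averaged -0.36, -0.94 and -0.97 at 12 h, below 0 on each, and -2.11, -1.13 and -1.87 at 24 h. CSTF3, a factor of mRNA 3′ end cleavage, stood at 0.64, 0.29 and 0.63 at 12 h and at -1.23, -0.26 and -0.09 at 24 h. No feature of CSTF3 had values on all 3 arrays of 12 h, and on sample 3 its features read 1.17 and 0.085, so its values are uncertain too. PPP1R15B, a regulator of eIF2α dephosphorylation, stood at 1.47, 0.39 and 0.44 and then at -0.85, -0.17 and -0.20. Its only feature with values on all 3 arrays of 12 h read 0.64, 0.39 and 0.44 there. The 24 h values of all 3 genes lay below all of their 12 h values, as they did in 339 of the 5411 rows (6.27%). BMF stood at 0.61 and -0.54 at 24 h, with no value on sample 3, above all its 12 h values (as in 235 rows, 4.34%), a difference of 1.29 ± 0.48 (SE, limma unadjusted p = 0.0285). The 1 feature that gave its 12 h values read 0.34 and -0.54 at 24 h, so this difference in part mixes features.

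Since arrays of a run resemble each other, the times were also set side by side within each run. In run 3, with narrow spread, the median of the study list was -0.121 at 8 h, -0.349 at 12 h and -0.337 at 24 h. In run 2, with wide spread, it was -0.411, -1.43 and -0.979. Run 1, which has no 8 h array, gave -0.673 and -1.03. So the list lay lower at 12 h than at 8 h in both runs that hold both times, and at 24 h it lay lower than at 12 h in run 1, higher in run 2 and at nearly the same place in run 3. MHC class II medians were -0.068, -0.171 and -0.328 in run 3, and 0.223, -0.966 and -0.737 in run 2. They were -0.343 and -0.404 in run 1. Over all rows, 224 (4.14%) had every 12 h value on the other side of 0 from every 8 h value, and 162 (2.99%) from every 24 h value. MZB1 was among both, at 0.13 and 0.09 at 8 h and 0.10, 0.10 and 0.33 at 24 h. Its 2 features with values on all 3 arrays of 12 h averaged -0.052 on sample 2 at 24 h, so that sign was uncertain.

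**Figure D5:**
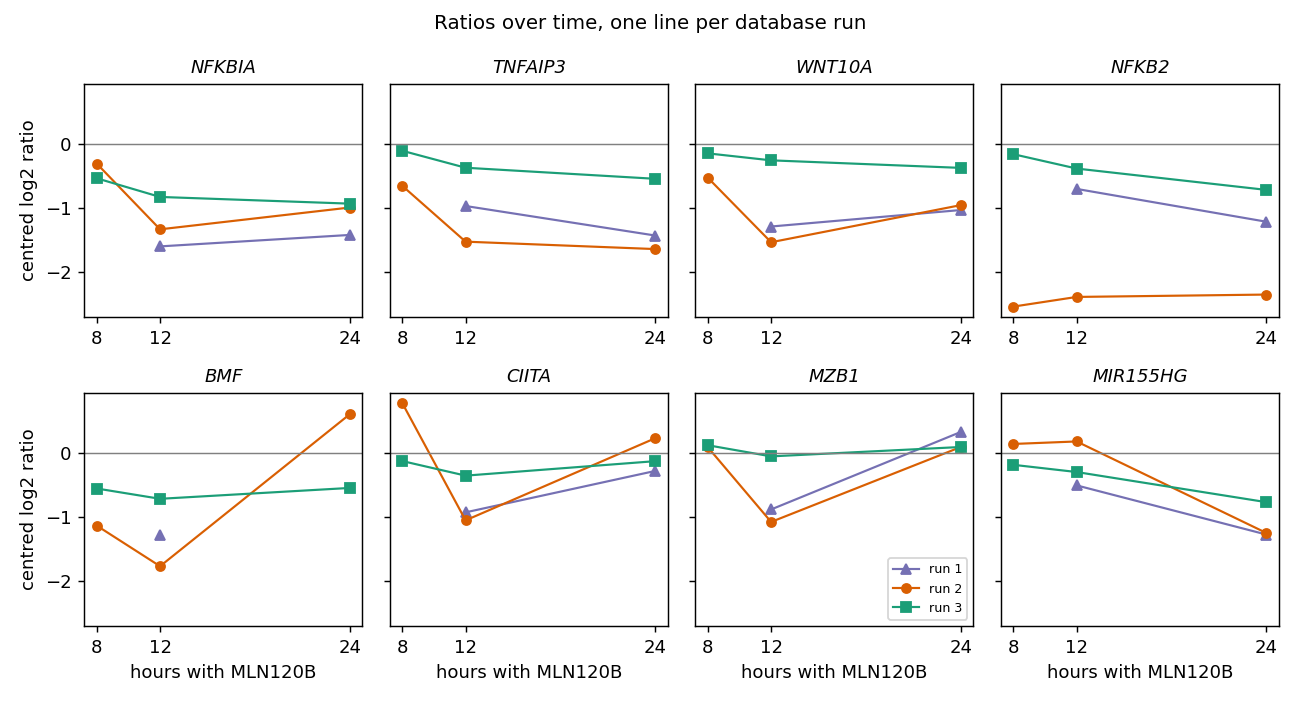
Each panel plots the centred log2 ratio of a gene against hours with MLN120B, with 1 line per database run (run 1 holds sample 3 of 12 h, run 2 sample 1, run 3 sample 2). NFKBIA and TNFAIP3 lie below 0 at every point and lower at 12 h than at 8 h in both runs with both times. Averaged over its features, MZB1 lies below 0 at 12 h alone, and MIR155HG is lowest at 24 h in each run.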

How the data were processed

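RNA from 8 samples was read on spotted 2-colour arrays. The values are the deposited log2 ratios, 1 column an array, likely Cy5 over Cy3 per the labels; the sources used here do not give background correction or normalization, and signal over background is unknown, so the number of arrays limits precision. Arrays were centred on their medians and features of a gene averaged. Of 15246 features the platform annotation names 1 gene for 10169, several for 4 and none for 5073; RefSeq updated 10145 symbols. Rows with at least 2 values at each time were tested (5411, 3311 of them named).

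In limma 3.58.1 (R 4.3.3) a model with a mean per time took all 8 arrays. Means were tested 2-sided against 0, or against each other. DMSO RNA is the other channel of each array, so its spread enters only through the ratios and was not estimated separately. Benjamini-Hochberg adjustment ran over all rows, with a threshold of 0.05. The fit was tested on simulated data in which each row had the same spread on every array. The real arrays differ in spread, so that test cannot show how the fit handles them. Tables and plots used pandas 2.3.3, matplotlib 3.10.9 and Python 3.11.15.

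Members and lists were chosen with earlier results of these data known. Named were all tested genes of the NF-κB study and subunit lists, the 8 genes each side of 0 with the smallest p and values of 1 sign on 3 arrays, the 2 members of each other list with the largest mean among those with 3 values, and 3 genes for each difference in time; members of a list named beyond these serve as examples and were chosen after their values were seen. Sample numbers pair 12 h with 24 h arrays, whose deviations from time means correlated at 0.196 to 0.295 (3 pairs, the same database run), but not the 8 h arrays. Alternatives were other scalings and filters, single features, blocks by number or run, array weights and left-out arrays.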

Additional observations from a re-analysis of the deposited data

Results flagged for a closer look

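The 93 tested genes named in the text, most of them chosen by their values, were searched for signs that differ between times. In 17 every 12 h value lay on 1 side of 0 and every value of another time on the other, 12 against 8 h and 7 against 24 h. Of all 5411 tested rows 224 (4.14%) and 162 (2.99%) did so. None of their differences between times passed limma's adjusted test, the unadjusted values are given where the difference was under 0.05, and this description of signs was not itself tested.

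Below 0 at 12 h and above it at 8 h were LYSMD3 (-0.99 against a mean of 0.44), SMC6 (-0.92 against 0.53), BUB1B, a kinase of the spindle checkpoint (-0.86 against 0.42), HSPA1L, a heat shock protein (-0.79 against 0.054), BCL6 (-0.70 against 0.33), MZB1 (-0.67 against 0.11), BLNK (-0.51 against 0.20), CCL5 (-0.50 against 0.38), HLA-DQA1 (-0.49 against 0.29) and ZC3H8 (-4.73 against 0.16, with 2 values at 12 h, 1 of them -8.80). By limma the unadjusted p of the difference was 0.0144 for LYSMD3, 0.0154 for SMC6, 0.0287 for BUB1B and 0.0454 for BCL6. For BUB1B and CCL5 the signs depended on which features were averaged. The only BUB1B feature with values on all 3 arrays of 12 h read -0.125 and 0.772 at 8 h. The 2 such features of CCL5 averaged 0.27 on sample 3 at 12 h. MZB1 was also above 0 on every array at 24 h, with a mean of 0.18 (limma unadjusted p = 0.0304). This sign depended on which features were averaged. Its 2 features with values on all 3 arrays of 12 h averaged 0.0995, -0.052 and 0.216 at 24 h, and -0.006 on sample 2 at 12 h.

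Above 0 at 12 h and below it at 8 h were CRELD2 (0.83 against -0.60, limma unadjusted p = 0.0342) and KLF1, an erythroid transcription factor (0.35 against -0.032). KLF1 was also below 0 at 24 h, at -0.049. The other genes of the 17 above 0 at 12 h and below it at 24 h were PPP1R15B (0.77 against -0.41, limma unadjusted p = 0.019), DTL (0.73 against -0.12, limma unadjusted p = 0.0362), CSTF3 (0.52 against -0.53, limma unadjusted p = 0.018), MTHFD2, an enzyme of mitochondrial folate metabolism (0.44 against -0.032), and FHIP2B (0.77 against -0.016). The 8 h group holds 2 arrays in all, and at 24 h KLF1, MTHFD2 and FHIP2B had values on 2. No feature of CSTF3 had values on all 3 arrays of 12 h.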

How the results depend on the processing

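Counts of rows past the adjusted threshold at 12 h stayed at 0 in all but 1 alternative, and limma's unadjusted p-values under 0.05 numbered from 39 (without sample 1) to 459 (run as a fixed block). Without replicate 3 of 12 h each comparison called 1 row (0 to 1 over left-out 12 h arrays), ZC3H8, whose value of -8.80 on sample 1 then stood alone at 12 h. With a filter of 2 values at 12 h and 4 in all, 12 h against 8 h called 8 rows, each resting on sample 2 at 8 h alone. With the sample number as a replicate block 0 rows were called in each comparison; so too in a pairing of 12 h and 24 h arrays alone, added after seeing the data. The block changed no other call. The number of rows in the lowest 5% of each array went from 1 to 2 with the wider filter, 5 as single features and 14 at 10%, and in the highest from 0 to 5 at 10%. As deposited, 810 rows lay lower and 267 higher on all 3 arrays.

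The study list's median stayed below 0, from -1.14 to -0.531 over left-out 12 h arrays. Of 448 list medians under alternatives 420 moved by less than the SD of the array medians and 28 by more. Of 81 named means 19 changed sign under at least 1 alternative. Over the 12 h arrays left out in turn the means that turned ran from -0.34 to 0.53 (REL), from -0.13 to 0.0595 (RELA), from -0.48 to 0.48 (BCL3), from -0.82 to 0.0302 (CYLD), from -1.06 to 0.0915 (TRAF1), from -0.37 to 1.59 (IL15), from -0.85 to 0.0118 (ERAP1), from -1.16 to 0.18 (RPL8), from -1.44 to 0.0425 (NCL), from -1.21 to 0.12 (POLE), from -0.60 to 0.18 (CDKN1A), from -1.10 to 0.12 (ZFP36), from -1.10 to 0.0690 (ADM), from -0.94 to 0.0405 (PSMB4), from -0.13 to 0.31 (PSMB6), from -2.47 to 0.19 (GATA3), from -0.15 to 1.26 (GNLY) and from -0.0578 to 0.69 (ITGAX). As deposited the mean was -0.0770 for REL, -0.0317 for BCL3 and -0.0300 for PSMB6. With quantile normalization the mean was -0.0642 for REL and -0.39 for BCL3. With scale normalization the mean was -0.0418 for REL and -0.24 for BCL3. With features on their own the mean was -0.17 for REL, -0.10 for BCL3, 0.00633 for CD69, -0.0855 for GNLY and -0.11 for ITGAX. With array weights the mean was -0.11 for REL, -0.37 for BCL3, -0.0867 for IL15, 0.0513 for NCL and 0.0603 for CDKN1A. Without run 2, an alternative added after seeing the data, the mean was -0.34 for REL, -0.48 for BCL3, 0.0915 for TRAF1, -0.37 for IL15, 0.0118 for ERAP1, 0.18 for RPL8, 0.0425 for NCL, 0.12 for POLE, 0.18 for CDKN1A, 0.12 for ZFP36, 0.0690 for ADM, 0.0405 for PSMB4, 0.19 for GATA3, -0.15 for GNLY and -0.0578 for ITGAX. With run as a fixed block the mean was 0.34 for RELA. With run as a random block the mean was 0.0424 for RELA. The causes were not tested.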

Other observations

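Cell cycle and metabolic lists lay near the middle at 12 h. Genes of DNA replication, 23 of 40 tested, had a median of -0.122, and genes of G2 and mitosis, 28 of 35, a median of 0.0113. BUB1B stood at -1.78, -0.19 and -0.61, and AURKB, a mitotic kinase, at -1.96, 0.03 and -0.20, although its 2 features with values on all 3 arrays averaged -0.23, 0.04 and -0.09. MYC and its targets, 14 of 25, had a median of 0.0367; on all 3 arrays 0 of 14 lay below 0 and 3 (21.4%) above, beside 9.5% and 14% of all rows. Glycolysis and hypoxia genes, 24 of 29, had a median of 0.0268.

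Genes of sterol and fatty acid synthesis, 11 of 27 tested, had a median of 0.137. CYP51A1, an enzyme of cholesterol synthesis, stood at 0.95, 0.13 and 0.60, a mean of 0.56 ± 0.27 (SE, n = 3), while SREBF2, the transcription factor that drives the pathway, stood at -1.80, -0.38 and -0.07, a mean of -0.75 ± 0.31 (SE, n = 3). Interferon-induced genes, 19 of 35, had a median of -0.026. On all 3 arrays 3 of 17 (17.6%) lay below 0 and 3 (17.6%) above, beside 9.5% and 14% of all rows. MHC class I and immunoproteasome genes, 10 of 18, had a median of 0.0324. None kept 1 sign on all 3 arrays, where 9.5% of all rows lay below 0 on each and 14% above. The medians of the remaining lists were -0.0202 for immediate early genes, -0.0589 for amino acid stress, 0.0572 for heat shock, 0.0993 for cell cycle inhibitors, -0.0695 for the proteasome and -0.11 for adhesion and migration. No gene of these lists passed limma's adjusted test (0 of 5411 rows in all, 166 at an unadjusted p under 0.05).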
